A study of Mus musculus with 16 samples.

Results

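Sorted CD4+CD8+ thymocytes of 5 mice that overexpress the nuclear NF-κB regulator Nfkbid were compared with the same cells of 5 mice labelled as Nfkbid knockouts. These 10 RNA libraries, chosen by their sample titles, are part of 16 in the series. All mice were 6 to 7 weeks old and of the NOD-AI4 strain, a diabetes-prone NOD line whose thymocytes bear the transgenic receptor called AI4, taken from self-reactive CD8 T cells. The transgenic mice were NOD-AI4-60A (2 females, replicates 1 and 2, and 3 males), and the knockout-labelled mice were NOD-AI4-Nfkbid-/- (1 female, replicate 1, and 4 males). The remaining libraries came from 6 NOD-AI4 controls (3 females and 3 males). Both compared groups carry mouse identifiers with 1 prefix, whereas the controls carry another. Control levels are therefore a reference only and are given for some genes. Where none is given, the values do not tell a gain in transgenic cells from a loss in knockout-labelled ones. The control libraries nevertheless share the fit that gives the calls. The labels give neither the promoter of the transgene nor the structure of the knockout allele, and 60A is 1 line.

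NF-κB transcription factors are held in check by IκB proteins. Nfkbid encodes IκBNS, which with Bcl3 and Nfkbiz belongs to the atypical IκB proteins that act in the nucleus, where they bind p50 and p52 homodimers and raise or lower transcription of selected target genes. Double-positive thymocytes are the stage at which cells with a newly made receptor are tested on self peptides bound to MHC molecules and either die or mature. Antigen receptor signals induce several NF-κB regulators, and MHC class I genes have κB and interferon response elements in their promoters.

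Levels are CPM, counts scaled to 1000000 per library after TMM scaling, and a gene is called when edgeR's quasi-likelihood test gives a Benjamini-Hochberg adjusted p under 0.05 over 14933 genes. Each adjusted p of a gene is from this edgeR test. The low-count filter passes a gene that reaches its threshold in 1 group alone. A gene near 0 in the knockout-labelled and control libraries was thus tested only through the transgenic libraries and could hardly be called lower. Library totals were 18546570 to 25836799 estimated counts in the transgenic and 21662210 to 35637813 in the knockout-labelled libraries. The 10 identity markers of double-positive thymocytes, among them Cd4, Cd8a, Rag1 and Rag2, summed to 5697 to 6412 CPM in transgenic and 5772 to 7281 CPM in knockout-labelled libraries, and 0 of them were called by edgeR, 2 at an unadjusted p under 0.05, and 0 by DESeq2. Receptor transcripts were mostly of 1 alpha and 1 beta variable gene: Trav12-3 took 74.9% of all Trav counts and Trbv1 took 97.9% of all Trbv counts. Trav12-3 was called higher in transgenic cells (log2 fold change 0.32, SE 0.06, adjusted p = 0.014), a call lost in 8 of 32 alternative settings, among them without knockout replicate 1 (0.053). Transgenic replicates 3 and 5 and control replicate 2 had high interferon-response transcripts, and knockout replicates 1 to 3 and control replicate 1 had class II transcripts above the rest of their own groups. All 5 transgenic libraries also had high class II transcripts, so leaving out the libraries of high class II transcripts, as done below, removes such libraries from the knockout-labelled and control groups alone. Results that rest on any of these are given with and without them. The libraries of high interferon response were chosen by transcripts that vary together, so leaving them out also narrows the spread of such genes. Transgenic replicates 1, 2 and 4 then remain, of which 1 and 2 are the females. In bulk RNA, a different number of cells of a type and a different amount of RNA per cell cannot be told apart.

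The difference between the groups was small in number and almost wholly in 1 direction. Of 14933 genes, 174 were called (1.17%). Of these, 160 were higher in transgenic cells (1.07% of all genes) and 14 were lower (0.0938%). The median log2 fold change was 1.55 among the genes called higher, -0.45 among those called lower and 0.000 over all genes. Among the called genes, 106 were higher by more than 2-fold and 1, the collagen gene Col1a2, was lower by more than 2-fold. In 150 of the 160 genes all 5 transgenic libraries lay above all 5 knockout-labelled ones, a state found in 2.33% of all genes. In 11 of the 14 they all lay below, a state found in 0.763% of all genes. Every transgenic library was also above every control library in 105 of the 160. The share of all genes in that state is not given here, and the controls carry another identifier prefix, so this count has no yardstick. Of the 174 calls, 92 were kept without the libraries of high interferon response, 71 without those of high class II transcripts, where 2 knockout-labelled libraries remain, and 63 in males alone. With only the 2 compared groups in the fit, 143 genes were called and 127 of the 174 calls were kept.

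**Figure D1:**
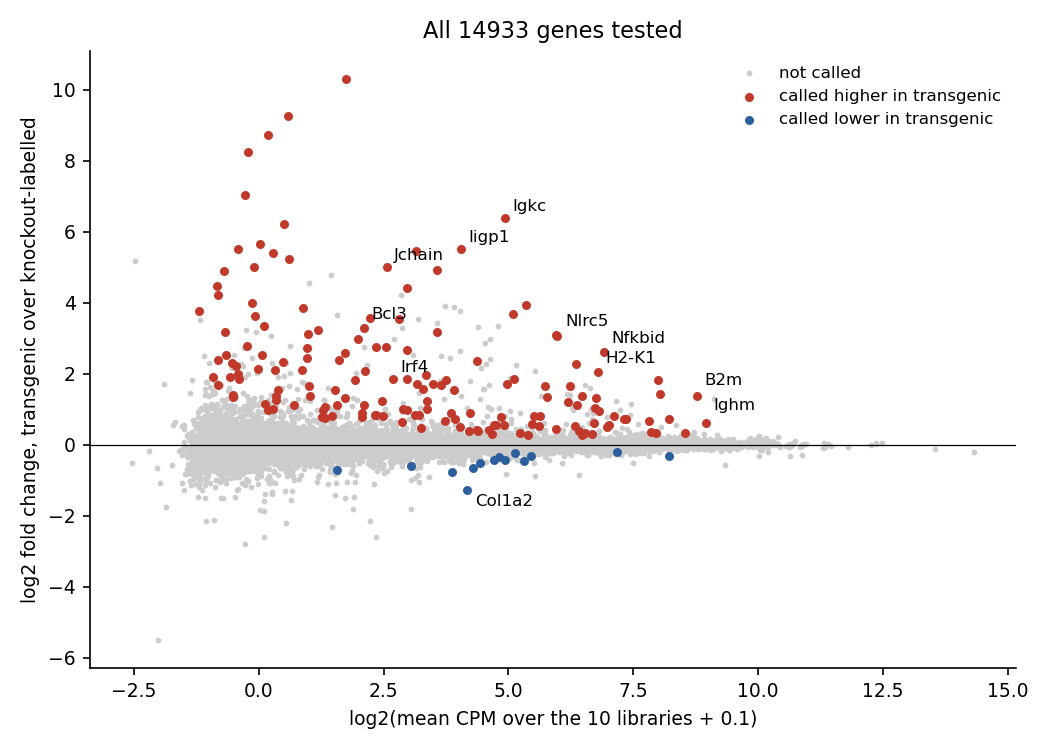
Each point is 1 of the 14933 genes tested, by its mean level over the 10 libraries (log2 scale) and its log2 fold change between transgenic and knockout-labelled libraries. Red points are the 160 genes called higher and blue points the 14 called lower in transgenic cells.

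Nfkbid itself (chromosome 7, 30421732 to 30428746, plus strand, GRCm38) was raised in every transgenic library. It stood at 309.6, 239.0, 114.7, 194.5 and 182.8 CPM in transgenic replicates 1 to 5 and at 34.3, 28.8, 28.7, 28.2 and 37.8 CPM in knockout replicates 1 to 5. The lowest transgenic library was far above the highest knockout-labelled one. The log2 fold change was 2.61 (SE 0.16, n = 5 against 5, adjusted p = 1.8e-06), a 6.09-fold difference, and the exact two-sided permutation p was 0.00794, the smallest that 252 permutations can give. The knockout-labelled libraries did not show a loss of the gene: their levels lay about the control range of 28.9 to 36.9 CPM. They are therefore called knockout-labelled throughout. The comparison sets a raised against a near-control level of Nfkbid RNA, and whether the labelled allele still gives protein cannot be read from gene-level counts.

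Of 75 annotated genes within 500 kb of Nfkbid, 43 were tested and 2 were called, Hcst and Cd22. Hcst, which encodes the signalling adaptor DAP10, lies next to Nfkbid on the opposite strand. It stood at 28.0, 20.7, 12.6, 17.4 and 17.6 CPM in the transgenic and at 7.38, 6.68, 5.00, 4.01 and 4.71 CPM in the knockout-labelled libraries. The groups did not overlap (log2 fold change 1.69, SE 0.15, adjusted p = 1.1e-05), and the libraries with most and least Hcst were those with most and least Nfkbid. Whether reads were counted by strand is not given in the sources used, so reads of this gene and of its neighbour may not be separable. The 41 uncalled neighbours had log2 fold changes of -0.87 to 1.26, and the median over all 43 was 0.007.

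Besides Nfkbid itself, which the list leaves out, 1 of 18 genes of the NF-κB and IκB family was called, Bcl3, and 0 were lower. Bcl3 is an atypical IκB protein like IκBNS, binds the same p50 and p52 dimers, and lies on chromosome 7 (19808462 to 19822770, minus strand). Its levels were 12, 9.76, 2.87, 8.72 and 5.10 CPM in transgenic replicates 1 to 5. In the knockout-labelled libraries they were 0.552, 0.298, 0.451, 1.42 and 0.716 CPM. Transgenic libraries lay above all others, and the controls, at 1.07 to 2.26 CPM, lay mostly above the knockout-labelled libraries. The difference between transgenic and knockout-labelled libraries was 9.76-fold (log2 fold change 3.29, SE 0.42, adjusted p = 4.8e-04). The family's median log2 fold change was 0.02, against 0.000 for all genes. Nfkb2, which encodes the p52 precursor, stood at 32.5 ± 2.5 CPM (SD, n = 5) in transgenic and 30.4 ± 5.4 CPM in knockout-labelled libraries. Relb, a partner of p52, stood at 13.0 ± 0.65 and 11.9 ± 1.9 CPM. Neither was called (log2 fold changes 0.10, SE 0.10, and 0.16, SE 0.10). Both values turned below 0 without the libraries of high class II transcripts.

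Among 23 NF-κB target genes, 1 was called, Irf1, and the list's median was 0.16. Irf1 encodes a transcription factor that carries interferon and NF-κB signals to MHC class I and interferon-stimulated genes. Its levels were 137.8, 123.9, 126.1, 120.9 and 133.7 CPM in transgenic against 86.2, 75.1, 72.8, 87.5 and 89.1 CPM in knockout-labelled libraries. These groups did not overlap (log2 fold change 0.62, SE 0.10, adjusted p = 0.0019). The call was lost without the libraries of high interferon response (adjusted p = 0.062) and without those of high class II transcripts (0.13). The list count was 3 without knockout replicate 5. In males alone, and with a replicate block and a GC and length correction, 1 member was also called lower. Of the 23 members, 19 had values above 0, and 6 had an unadjusted p under 0.05 in edgeR. Uncalled members included the survival gene Bcl2l1 at -0.28 (SE 0.11, adjusted p = 0.35) and the interleukin 2 receptor gene Il2ra at 0.31 (SE 0.14, adjusted p = 0.52).

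Among 24 genes induced by T cell receptor signals, 1 was called, Irf4, and the median was 0.01. Irf4, a transcription factor whose level follows receptor signal strength in T cells, stood at 13.8, 12.2, 6.95, 10.1 and 7.38 CPM in transgenic replicates 1 to 5. Its levels were 3.48, 3.235, 2.25, 1.70 and 2.69 CPM in the knockout-labelled libraries, without overlap (3.60-fold, log2 fold change 1.85, SE 0.22, adjusted p = 1.5e-04). Other receptor-induced genes did not pass the test. The nuclear receptor gene Nr4a1 stood at 65.2 ± 7.7 CPM against 72.2 ± 11.7 CPM, and Cd5, a surface gauge of receptor signal, at 455.4 ± 35.2 CPM against 390.6 ± 40.8 CPM. Bcl2l11, which encodes the death protein BIM of negative selection, stood at 152.9 ± 7.3 CPM against 173.6 ± 16.9 CPM (log2 fold change -0.18, SE 0.08, adjusted p = 0.52). The list count was 2 without knockout replicate 5.

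The level of Nfkbid differed among the transgenic libraries, which ranked 1, 2, 4, 5, 3 from high to low. The same rank order was found in 6 of the 160 genes called higher (Nfkbid, Bcl3, Irf4, Cyp4f18, Pim2 and Acsbg1) and in 196 of the 14933 genes tested. Nfkbid matches itself and is in both counts. Whether other genes follow the level of Nfkbid was not tested. The 2 libraries with most Nfkbid were the 2 females. A different order was far more common: replicates 3 and 5 were the highest pair in 83 of the 160 genes (51.9%), against 9.88% of all genes tested, and the lowest pair in 19 (11.9%), against 10.8%.

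**Figure D2:**
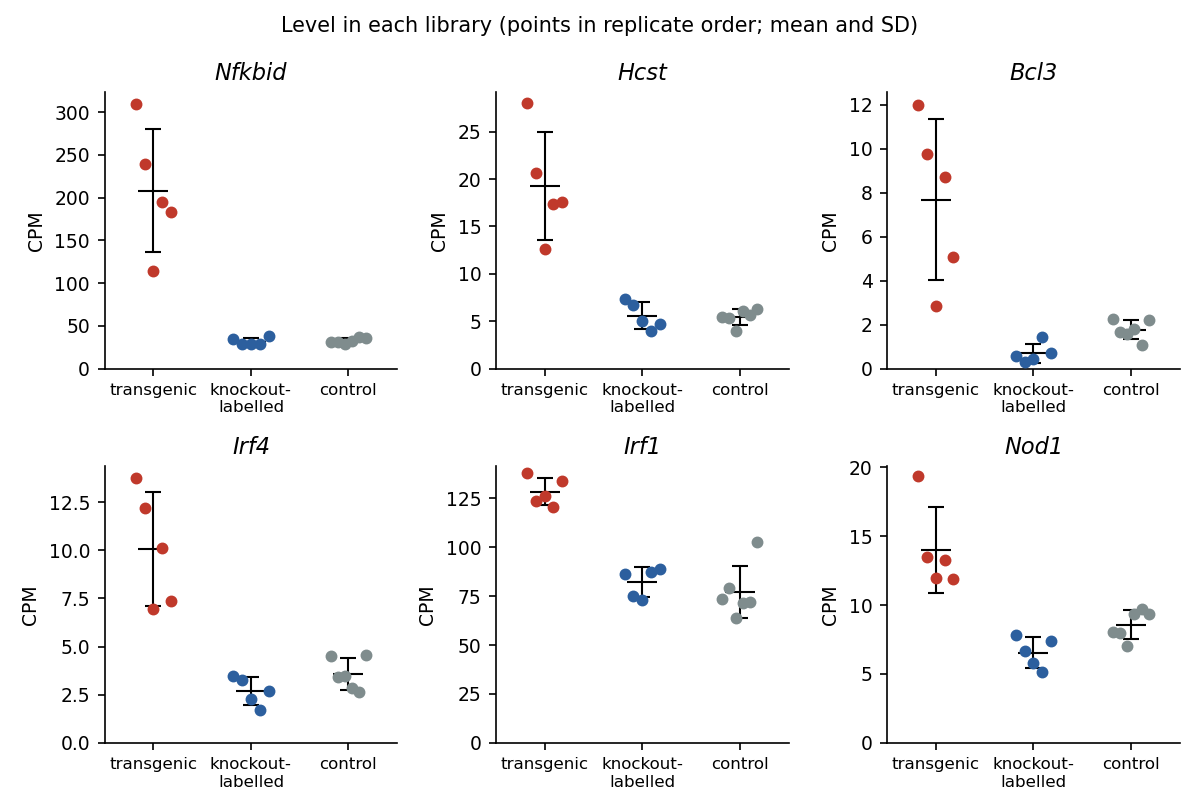
CPM of Nfkbid, its neighbour Hcst, Bcl3, Irf4, Irf1 and the peptidoglycan sensor gene Nod1, 1 point per library in replicate order from left to right, with mean and SD. All 5 transgenic libraries lie above all knockout-labelled and control libraries in each panel, and replicate 3 has the least Nfkbid and Bcl3 of the transgenic libraries.

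MHC class I presentation genes rose together. Of 19 genes, 15 were called higher and 0 lower, with a median log2 fold change of 0.54. The regulator Nlrc5, a transactivator of class I promoters, had the largest change. It stood at 95.3, 92.1, 143.4, 90.5 and 138.5 CPM in transgenic against 16.2, 11.7, 12.2, 11.9 and 18.7 CPM in knockout-labelled libraries (8.32-fold, log2 fold change 3.06, SE 0.37, adjusted p = 8.5e-04). The groups were far apart, and replicates 3 and 5 were the highest of the transgenic libraries.

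The heavy chain gene H2-K1 stood at 151.0, 137.1, 245.0, 133.0 and 216.9 CPM against 38.8, 38.7, 39.8, 50.9 and 54.0 CPM (log2 fold change 2.05, SE 0.24, adjusted p = 4.6e-04). H2-D1 stood at 351.6, 304.8, 532.1, 311.4 and 475.3 CPM against 118.1, 102.3, 101.0, 121.7 and 138.0 CPM (log2 fold change 1.81, SE 0.20, adjusted p = 2.0e-04). B2m, the light chain of every class I molecule, stood at 568.4, 543.6, 881.1, 450.3 and 680.5 CPM against 264.6, 221.2, 214.5, 252.7 and 279.5 CPM (log2 fold change 1.37, SE 0.18, adjusted p = 9.0e-04). In each of these 3 genes the lowest transgenic library was above the highest knockout-labelled one. Among non-classical genes, H2-Q7 rose by 2.35 (SE 0.20), H2-Q4, which was not on the list, by 0.71 (SE 0.10) and H2-T23, the Qa-1 gene, by 0.55 (SE 0.09) on the log2 scale. H2-Q and other class I genes are near-identical copies in part, so counts can be split between them.

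The 250 bases before the start sites of H2-K1, H2-D1, H2-Q7 and B2m are shown because these genes encode class I chains whose RNA rose. Their sequences come from RefSeq on GRCm38.p6, a C57BL/6J reference, and the NOD alleles were not read here. Capitals mark matches on either strand to the κB form (GGG, any 5 bases, then CC) or to the interferon response core (GAAA, any 2 bases, then GAAA). A match describes the letters and is not a shown binding site.
H2-K1: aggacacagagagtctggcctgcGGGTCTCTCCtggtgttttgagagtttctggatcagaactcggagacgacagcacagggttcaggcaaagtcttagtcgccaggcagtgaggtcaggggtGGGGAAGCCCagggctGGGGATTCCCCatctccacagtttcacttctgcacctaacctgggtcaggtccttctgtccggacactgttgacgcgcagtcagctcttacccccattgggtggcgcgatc
H2-D1: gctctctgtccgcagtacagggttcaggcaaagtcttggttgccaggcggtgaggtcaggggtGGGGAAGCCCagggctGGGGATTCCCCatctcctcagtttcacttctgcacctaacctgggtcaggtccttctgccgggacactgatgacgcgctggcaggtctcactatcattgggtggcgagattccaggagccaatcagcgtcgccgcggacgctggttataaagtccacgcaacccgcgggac
H2-Q7: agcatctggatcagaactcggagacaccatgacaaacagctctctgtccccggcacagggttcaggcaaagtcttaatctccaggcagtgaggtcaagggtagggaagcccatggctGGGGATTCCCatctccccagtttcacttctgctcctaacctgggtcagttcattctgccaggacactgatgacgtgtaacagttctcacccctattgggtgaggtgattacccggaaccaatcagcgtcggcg
B2m: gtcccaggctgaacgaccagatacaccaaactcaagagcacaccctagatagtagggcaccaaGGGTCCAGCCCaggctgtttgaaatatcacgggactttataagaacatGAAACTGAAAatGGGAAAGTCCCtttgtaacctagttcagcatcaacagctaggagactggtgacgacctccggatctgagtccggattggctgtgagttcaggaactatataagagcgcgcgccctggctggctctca
The windows are chr17:34000348-34000597 (minus strand) for H2-K1, chr17:35262844-35263093 (plus) for H2-D1, chr17:35438905-35439154 (plus) for H2-Q7 and chr2:122147437-122147686 (plus) for B2m. The H2-K1 and H2-D1 windows share the run GGGGATTCCCC, and only B2m of the 4 holds the interferon response core as spelled here. Looser forms of that element were not searched, so a window without a match may still hold one. Of the 15 called class I genes, 13 had a window in the table. The κB form was in 8 of these 13, against 48.7% of all genes with a window (45.8% of 32851 windows of this length), so it is a common match. Psmb9 and Tap1, both among the 8, have overlapping windows on opposite strands, so the same matches count for both genes. The interferon response core was in 2 of the 13, B2m and H2-T23, against 3.46% of all genes with a window (2.98% of windows).

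Genes that prepare and load the peptides were among those called. The immunoproteasome subunit gene Psmb9 stood at 67.1, 55.9, 65.1, 61.6 and 66.3 CPM against 39.6, 37.7, 34.3, 34.7 and 33.0 CPM (log2 fold change 0.82, SE 0.08, adjusted p = 1.3e-05). Its partners Psmb10 and Psmb8 rose by 0.53 (SE 0.08) and 0.35 (SE 0.06), and the proteasome activator gene Psme1 by 0.50 (SE 0.09) on the log2 scale. Tap1, a subunit of the peptide transporter, rose by 0.79 (SE 0.11), the peptide-loading gene Tapbp by 0.73 (SE 0.12) and the trimming peptidase gene Erap1 by 0.31 (SE 0.05). The members not called were Tap2 (0.20, SE 0.06, adjusted p = 0.17), H2-T22 (0.25), and the general chaperone genes Calr (0.03) and Pdia3 (0.00).

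The class I count was 10 without the libraries of high interferon response, 8 without those of high class II transcripts, 10 in males alone, and 13 to 16 when single libraries were left out. The median stayed at 0.38 or above in all of these settings. Without the libraries of high interferon response, Psmb8 (adjusted p = 0.098), Psme1 (0.066) and Erap1 (0.092) lost their calls. Without those of high class II transcripts, these genes, Psmb10 (0.10) and Tapbp (0.10) did so. In males alone Psmb10 (0.068), Psme1 (0.13), Tapbp (0.084) and H2-T23 (0.096) did so. Without the libraries of high interferon response, H2-K1 was at 1.62 (adjusted p = 1.9e-04), H2-D1 at 1.45 (5.6e-06), B2m at 1.01 (2.6e-04) and Nlrc5 at 2.70 (8.3e-05). Transgenic replicates 3 and 5, left out here, were the highest in each of these genes, so these adjusted p are not an independent check.

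Interferon-inducible GTPases, which attack vacuoles that hold pathogens, rose with the class I genes. Of 17, 13 were called higher and 0 lower, with a median of 1.71. Iigp1 stood at 14.2, 18.7, 74.3, 13.9 and 39.3 CPM against 0.170, 1.11, 0.766, 1.51 and 1.18 CPM (log2 fold change 5.52, SE 0.89, adjusted p = 0.0070). Gbp5 stood at 11.4, 10.8, 14.6, 10.4 and 12.9 CPM against 2.67, 3.41, 3.34, 4.32 and 3.91 CPM (log2 fold change 1.85, SE 0.20, adjusted p = 6.4e-05). In both genes the groups were apart, but the spread within the transgenic group was wide for Iigp1 and narrow for Gbp5. Gbp2 rose by 1.35 (SE 0.17) and Igtp by 1.65 (SE 0.27) on the log2 scale. Tgtp1 stood at 36.2, 35.2, 134.7, 27.3 and 78.7 CPM against 4.46, 4.72, 2.12, 8.18 and 7.997 CPM (log2 fold change 3.68, SE 0.68), and it has a near-identical copy, Tgtp2, so its counts are uncertain.

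Without the libraries of high interferon response the GTPase count was 13 and the median 1.31. Without those of high class II transcripts it was 3, in males alone 2, and without transgenic replicate 3 it was 8. Tgtp1 lost its call without transgenic replicate 3 (adjusted p = 0.059). Iigp1 lost its call in males alone (0.14) and without the libraries of high class II transcripts (0.12), as did Igtp (0.18 and 0.12).

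Type I interferon response genes had a larger median, 2.43, and 5 of 28 calls, with 0 lower. The count depended on the tool: DESeq2 called 26, edgeR without robust estimation 18 and limma-voom 3, against 16, 15 and 12 of the 17 GTPases. All 28 had a log2 fold change above 0, against 50.19% of all genes, and in 17 the groups did not overlap. The called genes included Oas1a, Ifi47, Zbp1 and Ifi27l2a. Oas1a, an antiviral oligoadenylate synthetase gene, stood at 3.81, 2.30, 53.9, 1.81 and 23.4 CPM against 0.225 to 0.625 CPM. Every transgenic library was above every knockout-labelled one, and most of the Oas1a difference lay in replicates 3 and 5. Ifit1, a cap-binding antiviral gene, showed the same pattern, at 17.9, 9.76, 145.4, 9.20 and 66.3 CPM against 3.20 to 8.08 CPM, and was not called (log2 fold change 3.33, SE 0.92, adjusted p = 0.13).

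Among the largest changes of all were further genes of this kind. Ly6a, which encodes the surface protein SCA-1, stood at 10.8, 6.79, 62.1, 5.85 and 26.9 CPM against 0.849, 1.41, 0.901, 0.739 and 0.589 CPM (log2 fold change 4.91, SE 0.85, adjusted p = 0.011). Its call was lost in males alone (0.14), without the libraries of high class II transcripts (0.12), without a sex term (0.050) and with limma-voom. Ifi27l2a stood at 24.3, 14.96, 217.0, 14.5 and 111.8 CPM against 4.75, 5.66, 4.28, 5.48 and 5.18 CPM (log2 fold change 3.93, SE 0.83). In both, replicates 3 and 5 were the highest of the transgenic libraries and the others were still above every knockout-labelled library. Ifit1bl1 stood at 5.32, 3.44, 44.3, 2.55 and 17.2 CPM against 0.297, 0.809, 0.316, 1.88 and 1.01 CPM (log2 fold change 4.41, SE 0.97). Ifi214 stood at 3.22, 1.83, 26.1, 1.54 and 9.43 CPM against 0.636, 0.553, 0.811, 0.966 and 0.842 CPM (log2 fold change 3.56, SE 0.75). The order of the libraries was alike in these genes, again without overlap.

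Which of these genes passed the threshold changed with single libraries, mostly with little change in the fold. The type I list count was 1 without any 1 of knockout replicates 2 to 5 or transgenic replicate 3, 2 without transgenic replicate 5, and 3 without control replicate 4 or 5 or transgenic replicate 1. It was 18 without transgenic replicate 4 and 21 without control replicate 2, which had 67.1 CPM of Ifit1 while the other controls had 1.82 to 5.55. Without control replicate 2 and transgenic replicates 3 and 5 together, 12 members were called and the median was 1.02. Those libraries were chosen by such genes, so this count is not an independent check. In males alone 0 were called at a median of 2.75. The count was also 0 without the libraries of high class II transcripts, at a median of 2.65. With a replicate block it was 0 as well, with or without a GC and length correction (medians 2.20 and 2.26). It was 2 without a sex term and 2 with only the 2 compared groups in the fit. Oas1a lost its call without knockout replicate 2, 3, 4 or 5 or transgenic replicate 3 (adjusted p = 0.053 to 0.073). Ifi47 did so without the same knockout replicates or transgenic replicate 3 or 5 (0.051 to 0.073). Zbp1 did so without any of these or without control replicate 4 or 5 or transgenic replicate 1 (0.050 to 0.098). Ifi27l2a and Ifi214 lost theirs without control replicate 4, 5 or 6, knockout replicate 2, 3, 4 or 5, or transgenic replicate 1, 3 or 5 (0.053 to 0.12 and 0.052 to 0.11), and Ifi27l2a also without transgenic replicate 2. Ifit1bl1 lost its call without any of these or knockout replicate 1 (0.065 to 0.16). In the leave-outs that ended its call, the log2 fold change was 4.59 to 5.54 for Oas1a, 0.89 to 1.04 for Ifi47 and 1.17 to 1.40 for Zbp1. It was 3.28 to 4.06 for Ifi27l2a, 2.70 to 3.62 for Ifi214 and 3.75 to 4.84 for Ifit1bl1.

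**Figure D3:**
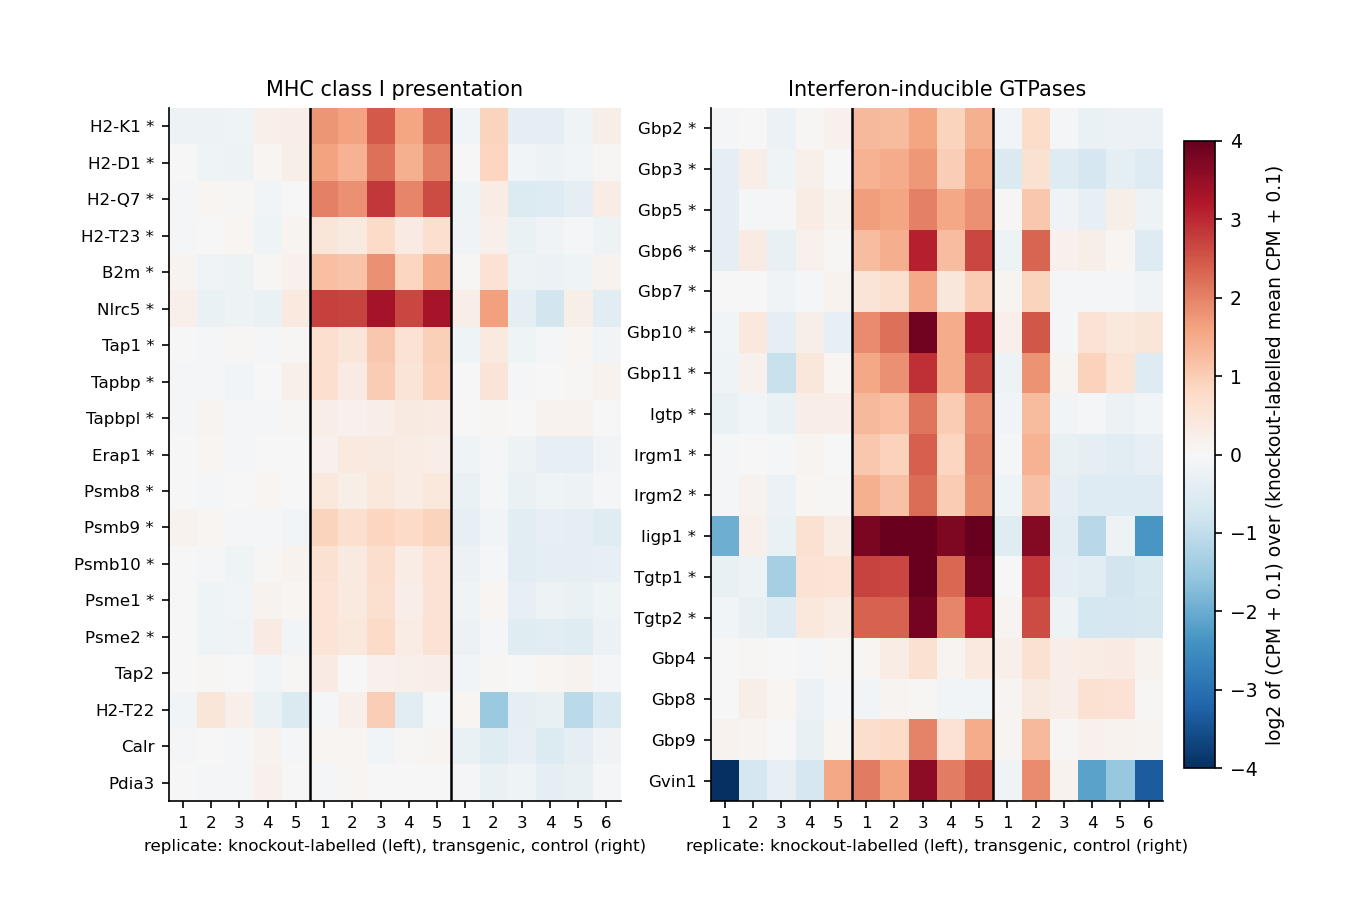
Level of each gene in each library relative to the knockout-labelled mean, as log2 of (CPM + 0.1) over (mean + 0.1), for the lists of class I presentation genes and interferon-inducible GTPases. A star marks a called gene. All transgenic columns are red for most genes, darkest in replicates 3 and 5, and control replicate 2 is red for many GTPases.

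Immunoglobulin transcripts gave the largest fold changes. The kappa constant gene Igkc stood at 27.6, 40.0, 74.7, 69.4 and 88.0 CPM in transgenic against 1.27, 1.32, 0.811, 0.114 and 0.505 CPM in knockout-labelled libraries (log2 fold change 6.39, SE 0.57, adjusted p = 6.0e-05). Jchain, which joins secreted IgM and IgA, stood at 3.71, 7.62, 14.5, 12.9 and 17.6 CPM against 0.199 to 0.552 CPM (log2 fold change 5.01, SE 0.36, adjusted p = 2.3e-06). Ighg2c, a class-switched heavy chain gene, stood at 1.17, 4.22, 9.08, 13.9 and 4.29 CPM and had 0 counts in all knockout-labelled libraries. Against a floor of 3 counts over that group its mean of 6.53 CPM was at least 279-fold higher. With 0 counts there, Ighg2c could hardly be called lower. Every transgenic library was above every knockout-labelled one in all 3 genes. The call of Ighg2c was lost without the libraries of high interferon response (adjusted p = 0.066) or of high class II transcripts (0.067).

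Many variable segments took part. Summed Igkv transcripts were at 19.5, 31.2, 61.2, 51.4 and 65.6 CPM in transgenic and 0.170 to 0.809 CPM in knockout-labelled libraries, with 52 to 65 segments detected in each transgenic and 3 to 8 in each knockout-labelled library. Summed Ighv transcripts were at 14.4, 22.03, 45.9, 40.1 and 46.8 CPM against 0.0284 to 0.976 CPM, with 55 to 73 against 1 to 7 segments detected. The most abundant segment, Igkv1-135, took 6.01% of the Igkv counts. Near-identical segments share reads, so single segments are not compared. Ighm, whose transcripts were abundant in all groups, stood at 562.1 to 675.0 CPM against 351.7 to 419.1 CPM (log2 fold change 0.62, SE 0.06, adjusted p = 4.1e-05).

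Of 12 tested B cell and plasma cell markers, 8 were called higher and 0 lower, with a median of 2.45. Members near 0 outside the transgenic group were tested only through it, so this count and median lean to higher values by selection. The count was 8 without the libraries of high interferon response, 5 without those of high class II transcripts and 6 in males alone. The list's summed level was 635.4 to 797.9 CPM in transgenic and 371.2 to 429.2 CPM in knockout-labelled libraries, mostly Ighm, and Vpreb3 was below 1 CPM in all 10. Cd22, a B cell inhibitory receptor gene that lies within 500 kb of Nfkbid, stood at 5.22, 1.21, 0.999, 0.957 and 0.667 CPM against 0.0421 to 0.298 CPM (log2 fold change 3.33, SE 0.68, adjusted p = 0.021). Replicate 1 was the highest transgenic library. The call of Cd22 was lost without knockout replicate 1 (0.091) or 4 (0.056), in males alone (0.080) and without the libraries of high class II transcripts (0.10).

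Other B-lineage genes were low but separate between the groups. Mzb1, an immunoglobulin chaperone gene of plasma cells, had a mean of 0.126 ± 0.076 CPM in knockout-labelled and 1.57 ± 0.44 CPM in transgenic libraries (SD, n = 5; log2 fold change 3.61, SE 0.44, adjusted p = 2.0e-04). The lambda constant gene Iglc1 rose by 5.01 (SE 0.64), the antigen receptor subunit gene Cd79b by 1.13 (SE 0.20) and Spib, a transcription factor of B cells and plasmacytoid dendritic cells, by 2.09 (SE 0.41) on the log2 scale. Iglc2 had 3 counts in all knockout-labelled libraries together and 0.638 to 2.13 CPM in the transgenic ones. Iglc1 lost its call without the libraries of high interferon response (adjusted p = 0.061), Cd79b in males alone (0.096) and without those of high class II transcripts (0.078), and Spib without the libraries of high interferon response (0.10) and in males alone (0.12).

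**Figure D4:**
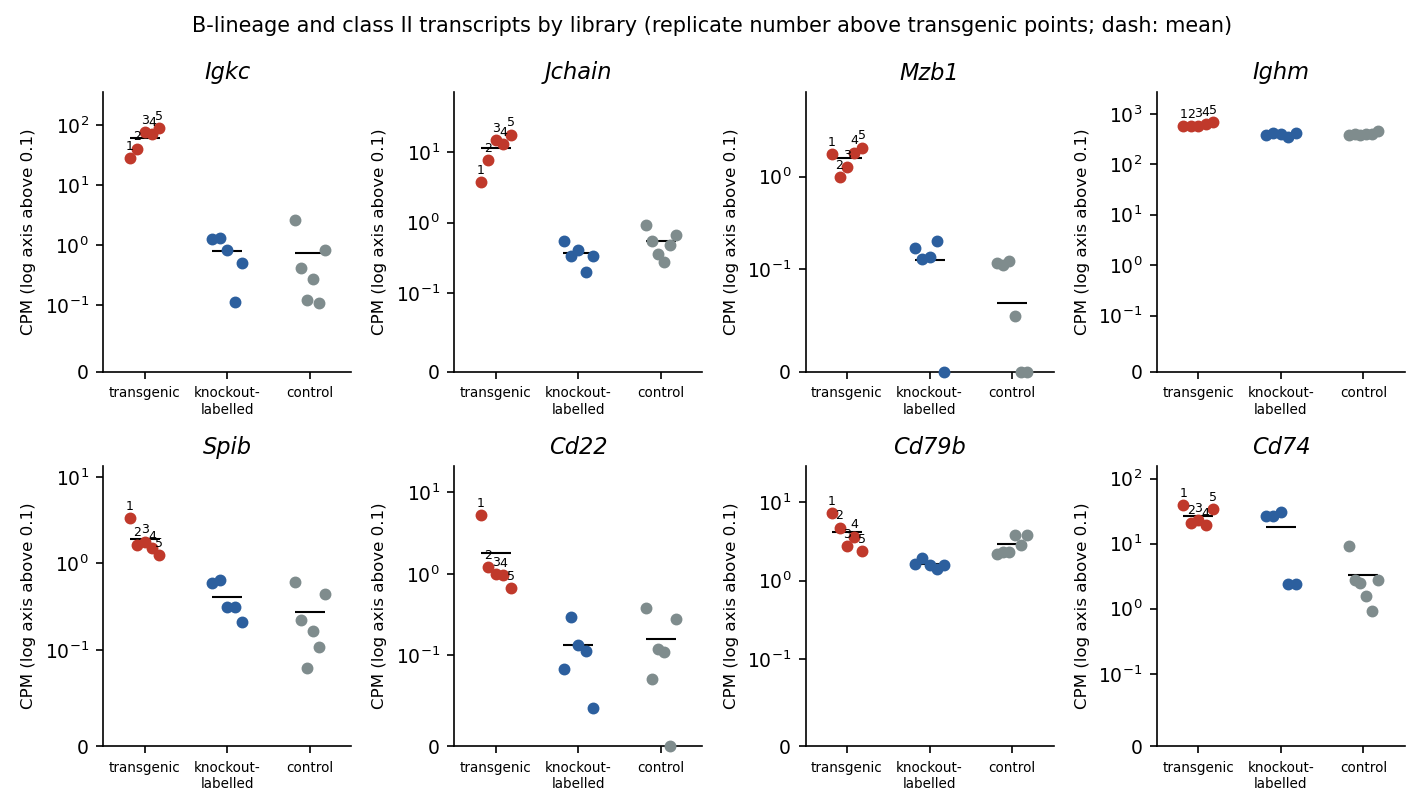
CPM of immunoglobulin, B cell and class II genes, 1 point per library, on an axis that is logarithmic above 0.1 CPM and linear below it; dashes are group means. Replicate 1 is the lowest transgenic library for Igkc and Jchain and the highest for Spib, Cd22 and Cd79b, and the knockout-labelled libraries fall in 2 sets for Cd74.

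Class II transcripts did not follow the immunoglobulin genes. Cd74, the class II invariant chain gene, stood at 38.8, 21.1, 22.8, 19.1 and 33.9 CPM in transgenic libraries and at 27.1, 26.5, 30.7, 2.44 and 2.40 CPM in knockout-labelled ones. Knockout replicates 1 to 3 lay inside the transgenic range and replicates 4 and 5 far below it, and the gene was not called (log2 fold change 0.63, SE 0.69, adjusted p = 0.91). In those 3 libraries Igkc was at most 1.32 CPM. Of 10 tested class II genes 1 was called, H2-DMa, which loads peptides onto class II molecules (log2 fold change 0.48, SE 0.09, adjusted p = 0.0089). H2-DMa was not called without the libraries of high interferon response (0.18).

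Adamdec1, among the genes of largest change, and Ctss and Cybb, named after their values were seen, are known from myeloid or dendritic cells. Ctss, a lysosomal protease gene, stood at 14.5, 15.1, 21.0, 14.5 and 14.9 CPM against 5.94, 3.62, 5.09, 2.30 and 3.83 CPM (log2 fold change 1.95, SE 0.30, adjusted p = 0.0025). Cybb, the catalytic subunit gene of the phagocyte oxidase, stood at 3.17, 3.98, 2.95, 3.67 and 2.29 CPM against 0.806, 0.894, 0.631, 0.000 and 0.126 CPM (log2 fold change 2.71, SE 0.54, adjusted p = 0.017). Adamdec1, a protease-like gene of tissue macrophages and dendritic cells, stood at 3.71, 4.06, 1.04, 2.07 and 2.95 CPM against 0.000 to 0.128 CPM (log2 fold change 5.23, SE 0.72, adjusted p = 8.5e-04). The transgenic libraries lay above the knockout-labelled ones in all 3 genes. Cybb was not called without the libraries of high interferon response (0.11), with only the 2 compared groups in the fit (0.080) or in males alone (0.17).

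Of 11 tested macrophage and monocyte markers 0 were called by edgeR and 10 had values above 0, with a median of 1.58 and a summed level of 164.6 to 188.2 CPM against 145.8 to 176.2 CPM. At an unadjusted p under 0.05 edgeR counted 7, DESeq2 called 1, limma-voom 2, and edgeR without the libraries of high class II transcripts 4. Without knockout replicate 2 or control replicate 1 the count was 1. C1qb, C1qc, Fcgr1, Mertk and Cd14 were below 1 CPM in all 10 libraries. Members near 0 outside the transgenic group enter the test only through it, which can raise the median. Of 10 dendritic cell markers 1 was called, the endocytic receptor gene Ly75, which the list of thymic epithelial markers also holds. The dendritic list gave 6 calls without the libraries of high class II transcripts and 2 without knockout replicate 2. Macrophages and dendritic cells express class II genes, so the counts without those libraries are not independent of how the libraries were chosen. Ly75 stood at 64.4, 56.5, 57.6, 57.9 and 54.3 CPM against 35.8, 37.2, 34.8, 28.8 and 26.6 CPM (log2 fold change 0.80, SE 0.09, adjusted p = 5.4e-05), and no transgenic library came near the knockout-labelled range. The defining epithelial markers Foxn1, Psmb11, Epcam, Krt5, Krt8, Krt14 and Aire were below 1 CPM in all 10 libraries. Of the erythroid, granulocyte and natural killer or gamma-delta marker lists, 0 of 5, 0 of 1 and 0 of 9 tested members were called by edgeR, DESeq2 or limma-voom, with 0, 0 and 1 at an unadjusted p under 0.05. The part of other cell types in the results above was not tested.

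A pair of inflammasome protease genes that lie side by side on chromosome 9 rose from near 0. Casp1 stood at 1.07, 1.48, 0.478, 0.851 and 0.619 CPM against 0.213 CPM in knockout replicate 2 and 0 in the other 4 (log2 fold change 4.23, SE 0.72, adjusted p = 0.0047). Casp4 stood at 0.878, 0.625, 0.651, 0.425 and 0.572 CPM against 0.000 to 0.0851 CPM (log2 fold change 3.77, SE 0.56, adjusted p = 0.0013). Each had 5 counts in the knockout-labelled libraries together. Genes so low there pass the low-count filter only through another group, so a call of lower was hardly possible. Casp1 was not called in males alone (0.098).

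Several immune genes at moderate levels were also called higher. Nod1, a peptidoglycan sensor that signals to NF-κB, stood at 19.4, 13.5, 11.9, 13.3 and 11.9 CPM against 7.81, 6.64, 5.81, 5.14 and 7.37 CPM (log2 fold change 1.02, SE 0.11, adjusted p = 5.4e-05). Tnfrsf8, the TNF receptor family gene of CD30, stood at 22.7, 20.7, 14.7, 17.1 and 19.2 CPM against 10.1, 12.9, 10.3, 9.29 and 7.07 CPM (log2 fold change 0.90, SE 0.14, adjusted p = 0.0022). Serpinb9, an inhibitor of granzyme B, stood at 11.7, 11.8, 10.7, 10.4 and 10.9 CPM against 5.86, 7.07, 5.90, 5.80 and 6.23 CPM (log2 fold change 0.84, SE 0.13, adjusted p = 0.0017). In all 3 genes the groups were apart, and replicate 1 was well above the other transgenic libraries in Nod1.

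Ppic, a cyclophilin gene, rose by 2.39 (SE 0.29) on the log2 scale, with 7.32, 8.01, 2.00, 5.27 and 2.86 CPM in transgenic against 0.676 to 1.01 CPM in knockout-labelled libraries. The phospholipase gene Pla2g16 rose by 1.54 (SE 0.16) and the formin gene Inf2 by 0.72 (SE 0.09). Nod1, Ppic, Pla2g16 and Inf2 kept their calls in all 32 alternative settings. Tnfrsf8 lost its call in males alone (0.080) and Serpinb9 without the libraries of high class II transcripts (0.056). Tnfrsf1b, the gene of TNF receptor 2, rose by 0.38 (SE 0.07, adjusted p = 0.0062) and lost its call in 4 of the settings.

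Of 28 mature single-positive thymocyte genes, 3 were called higher, Ly6a, Ms4a4b and Ms4a6b, and 0 lower, with a median of 0.38 and 25 values above 0. The membrane protein gene Ms4a6b stood at 217.3, 254.6, 385.1, 246.3 and 275.1 CPM against 178.9, 167.2, 176.9, 186.5 and 177.8 CPM (log2 fold change 0.66, SE 0.13, adjusted p = 0.017). Ms4a4b stood at 80.5, 78.4, 169.4, 79.8 and 97.0 CPM against 49.9, 40.7, 43.4, 39.4 and 53.2 CPM (log2 fold change 1.19, SE 0.25, adjusted p = 0.037). Replicate 3 was highest in both. The list count was 1 without the libraries of high interferon response or in males alone and 0 without those of high class II transcripts. Ms4a4b lost its call without control replicate 1 or 4, knockout replicate 2, 3, 4 or 5, or transgenic replicate 1, 2, 3 or 5 (adjusted p = 0.053 to 0.11). Of 9 IRF genes, Irf1 and Irf4 were called, and the count was 5 with DESeq2, 4 in edgeR without robust estimation, and 4 without control replicate 2 or transgenic replicate 4.

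The genes called lower changed by small amounts, except Col1a2. This type I collagen chain gene stood at 9.22, 11.01, 12.5, 10.4 and 9.24 CPM in transgenic against 26.4, 17.5, 21.2, 39.8 and 23.02 CPM in knockout-labelled libraries (log2 fold change -1.29, SE 0.19, adjusted p = 0.0018). All transgenic libraries were also below the controls, at 17.9 to 24.5 CPM. It was the only one of 5 tested stroma and endothelium markers called, while Col1a1, Col3a1, Dcn and Sparc were below 1 CPM in all 10 libraries, and it lost its call in males alone (0.10). Foxb1, a forkhead transcription factor gene, stood at 10.98, 9.998, 11.6, 8.24 and 11.7 CPM against 13.6, 17.4, 17.9, 24.1 and 19.4 CPM (log2 fold change -0.76, SE 0.12, adjusted p = 0.0026) and kept its call in all 32 settings. Nedd4, a ubiquitin ligase gene, stood at 253.1, 263.0, 262.7, 269.6 and 269.2 CPM against 332.5, 305.9, 324.3, 352.8 and 323.2 CPM (log2 fold change -0.32, SE 0.06, adjusted p = 0.0098). In these 3 genes the groups did not overlap, and Nedd4 lost its call in males alone (0.055) and without the libraries of high class II transcripts (0.064).

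The other genes named by size changed by less than 2-fold. Bex1 stood at 1.61, 2.11, 2.26, 1.91 and 2.76 CPM against 3.65, 3.62, 2.98, 3.72 and 4.00 CPM (log2 fold change -0.72, SE 0.15). Tmem35a stood at 6.29, 7.11, 7.9, 5.42 and 5.43 CPM against 9.04, 8.73, 8.2, 10.6 and 13.3 CPM (log2 fold change -0.61, SE 0.14). Kcnh2, a potassium channel gene, stood at 19.1, 16.01, 17.8, 17.2 and 17.4 CPM against 21.0, 22.8, 21.4, 27.9 and 33.2 CPM (log2 fold change -0.52, SE 0.11). In these and the next 4 genes the groups did not overlap. Adam12, a metalloprotease gene, stood at 31.6, 32.4, 34.0, 32.4 and 34.2 CPM against 35.04, 49.7, 51.1, 44.7 and 53.7 CPM (log2 fold change -0.46, SE 0.10). In the controls Adam12 stood at 43.3 CPM in replicate 6 and at 62.4 to 65.2 CPM in the others. Plxnb1, a semaphorin receptor gene, stood at 25.5, 19.8, 26.8, 26.5 and 29.1 CPM against 32.0, 29.6, 35.2, 35.3 and 42.9 CPM (log2 fold change -0.44, SE 0.10). Both are expressed at a moderate level in all libraries. Pik3c2b, a lipid kinase gene, stood at 24.7, 18.2, 24.1, 21.8 and 23.7 CPM against 30.8, 25.9, 30.7, 27.8 and 34.9 CPM (log2 fold change -0.42, SE 0.09). Sall2, a zinc finger transcription factor gene, stood at 24.4, 22.4, 25.9, 24.1 and 25.5 CPM against 32.4, 29.5, 28.9, 30.2 and 36.0 CPM (log2 fold change -0.35, SE 0.07). Ston1 (-0.32, SE 0.07) was called although its groups overlapped. With only the 2 compared groups in the fit, Bex1 (adjusted p = 0.064), Tmem35a (0.14), Kcnh2 (0.12) and Plxnb1 (0.10) lost their calls. So did Pik3c2b (0.11), Sall2 (0.056) and Ston1 (0.13). Single libraries also ended several of these calls. Pik3c2b (adjusted p = 0.062) and Sall2 (0.076) lost theirs without knockout replicate 1. Bex1 lost its call without knockout replicate 1 or transgenic replicate 3 or 4 (0.050 to 0.069), and Kcnh2 without knockout replicate 4 or transgenic replicate 3 or 5 (0.056 to 0.068). Adam12 did so without knockout replicate 2, 3 or 5 or transgenic replicate 3, 4 or 5 (0.052 to 0.084). Tmem35a did so without knockout replicate 1, 4 or 5 or transgenic replicate 1, 4 or 5 (0.066 to 0.14), and Ston1 without knockout replicate 2, 4 or 5 or transgenic replicate 2, 3, 4 or 5 (0.057 to 0.14). Plxnb1 did so without control replicate 3 or 4, knockout replicate 1, 3, 4 or 5, or transgenic replicate 1, 2, 3 or 4 (0.050 to 0.092).

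Lists of the double-positive stage, receptor signalling, survival and growth had no calls. edgeR called 0 of 24 double-positive thymocyte genes (median -0.11, with 3 values above 0), 0 of 28 T cell receptor signalling components (0.01), 0 of 19 BCL2 family and death genes (-0.01) and 0 of 30 proliferation genes (0.04). The co-receptor gene Cd4 stood at 727.9 ± 39.4 CPM in transgenic and 783.9 ± 57.6 CPM in knockout-labelled libraries (log2 fold change -0.10, SE 0.09). Rag1, needed to recombine receptor genes, stood at 505.5 ± 56.5 CPM against 793.9 ± 242.0 CPM (log2 fold change -0.58, SE 0.23, adjusted p = 0.40).

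edgeR also called 0 of 21 immediate-early and stress genes (median -0.13), 0 of 23 cholesterol synthesis genes (0.16), 0 of 21 glycolysis genes (0.10), 0 of 75 nuclear oxidative phosphorylation genes (0.05) and 0 of 75 cytosolic ribosomal protein genes (0.09). It called 0 of 18 genes of the unfolded protein and amino acid responses (-0.02), 0 of 16 p53 target genes (-0.03), 0 of 12 glucocorticoid-induced genes (-0.08) and 0 of 13 regulatory and agonist-selected T cell genes (0.18). The counts were also 0 for 22 cytokine receptor and SOCS genes (0.13) and 15 double-negative stage genes (0.03). At an unadjusted p under 0.05, edgeR counted 3 double-positive, 2 receptor signalling, 3 BCL2 family, 1 proliferation, 5 double-negative and 4 immediate-early genes. The same count was 8 for cholesterol synthesis, 5 for glycolysis, 3 for oxidative phosphorylation, 6 for ribosomal proteins and 5 for cytokine receptors. It was 2 for p53 targets, 1 for regulatory T cell genes and 0 each for the unfolded protein and glucocorticoid lists. DESeq2 and limma-voom at their adjusted p under 0.05 called 0 members of these 15 lists. Single libraries gave 1 call in the double-negative and unfolded protein lists without knockout replicate 4 and in the proliferation list without knockout replicate 2. Other settings also gave 1 call. It was higher in the proliferation list without the libraries of high class II transcripts and in the cytokine receptor list with a GC and length correction. It was lower in the BCL2 family list in males alone, in the double-positive list with the replicate block, and in both of these and the glycolysis list with the block and that correction.

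**Figure D5:**
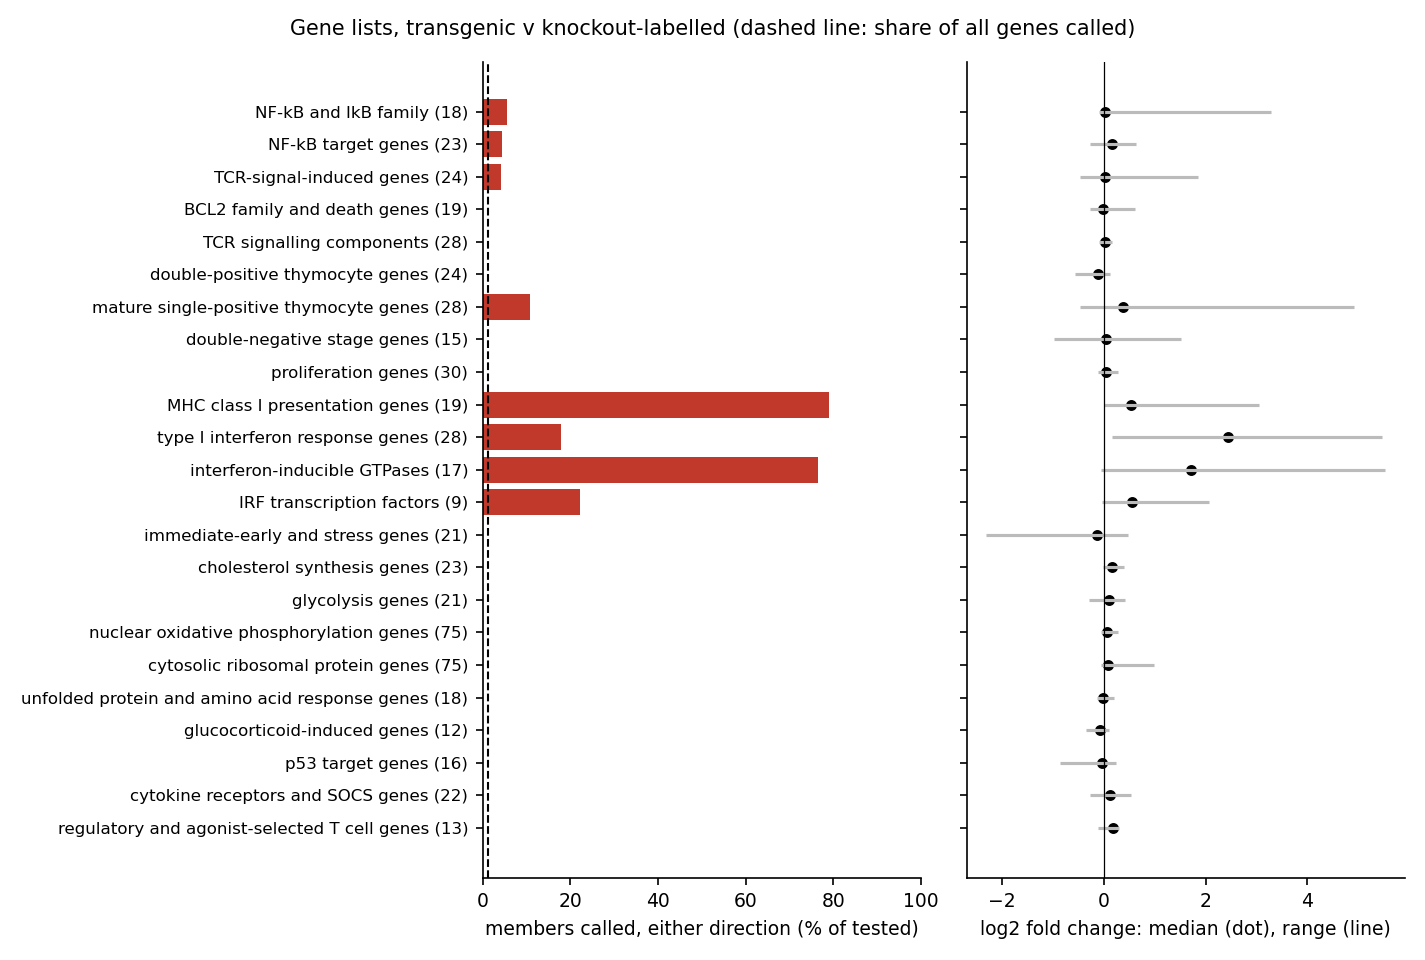
For each gene list, with the number of members tested in brackets, the share of members called (left; dashed line, the 1.17% of all genes called) and the median and range of log2 fold changes (right). The lists of class I presentation genes and interferon-inducible GTPases have the largest shares called, and 15 of the 23 lists have none.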

How the data were processed

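RNA of flow-sorted live CD4+CD8+ thymocytes was sequenced with a stranded kit, per the labels' protocols. The submitters' processing notes name Bowtie 1.0.0, SAMtools 0.1.18, edgeR 3.24.3 and build GRCm38. The counting program and its strand setting are not given in the sources used here. Per the file headers, each deposited file holds estimated counts (58.7% of nonzero values whole within 1e-06) and TPM per gene. The TPM values the authors deposited were read only to check that they sum to 1000000. Of 46517 gene IDs, 512 had no symbol and held 0.171% of counts.

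Estimated counts were rounded, filtered with filterByExpr, scaled by TMM and fitted in edgeR 4.0.16 (R 4.3.3, limma 3.58.1) with robust quasi-likelihood over all 16 libraries, with group and sex as terms (12 residual degrees of freedom, common biological coefficient of variation 0.128). Alternatives included DESeq2 1.42.0, limma-voom, other scalings and filters, a replicate block and leaving out libraries. Replicates are separate mouse identifiers, so p-values measure the spread between mice. No pair of libraries agreed within sampling noise (chi-square over degrees of freedom 4.68 to 50.8). In a simulation of this comparison on 14713 genes, the fit recovered 81% of genes changed by 1.5-fold and 100% of those changed by 2-fold. It also gave 9 false calls. These shares do not carry over to genes that vary widely between mice of a group. Of 28 type I interferon response genes, with a median log2 fold change of 2.43, only 5 were called in the real data.

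The text names Nfkbid, the 12 called genes of largest change in each direction with a mean of at least 1 CPM (clone names and variable segments left out), and the 2 called members of smallest p in each direction of each list, or 1 member where none was called; other genes were named after their values were seen, and some genes within the rule are not reported here. The members and lists were chosen with earlier results of these data known. Promoter windows hold 250 bases upstream.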

Additional observations from a re-analysis of the deposited data

Results flagged for a closer look

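In 271 groups of 5 or 6 libraries, 1 per named gene and group where at least 1 library reached 1 CPM, 41 libraries stood apart from the rest of their group by Dixon's test at the 95% level, where chance alone gives about 1 in 20. All values are CPM, with the range of the other libraries of the group in brackets.

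Control replicate 2 gave 21 of them. Its class I presentation genes were Psmb9 at 33.5 (others 25.5 to 28.5), H2-D1 at 212.3 (others 100.1 to 119.7), Nlrc5 at 44.0 (others 8.54 to 17.1), Tap1 at 134.8 (others 91.2 to 107.4), Psme1 at 111.6 (others 83.0 to 93.2), Tapbp at 170.9 (others 112.7 to 131.8) and H2-T23 at 121.6 (others 88.4 to 98.7). Its interferon-inducible GTPases were Iigp1 at 13.1 (others 0.11 to 0.801), Tgtp1 at 39.6 (others 3.26 to 5.59), Gbp5 at 7.62 (others 2.79 to 4.17), Gbp2 at 51.7 (others 26.2 to 30.1) and Igtp at 92.3 (others 32.9 to 36.4). Its other interferon response genes were Oas1a at 7.92 (others 0.221 to 0.85), Ly6a at 8.99 (others 0.274 to 1.61), Ifit1bl1 at 13.6 (others 0.438 to 0.89), Ifi27l2a at 49.9 (others 2.9 to 5.42), Ifi214 at 7.0 (others 0.552 to 1.3), Ifit1 at 67.1 (others 1.82 to 5.55), Irf7 at 79.4 (others 13.6 to 17.4), Zbp1 at 119.0 (others 45.2 to 54.8) and Ifi47 at 123.5 (others 56.9 to 68.6). In each gene it was the highest control.

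Among the transgenic libraries, replicate 1 stood apart for Cxcr2 at 8.44 (others 7.3 to 7.55), Cd22 at 5.22 (others 0.667 to 1.21), Nod1 at 19.4 (others 11.9 to 13.5) and Spib at 3.32 (others 1.24 to 1.78). Replicate 2 stood apart for Slc7a11 at 15.9 (others 11.8 to 12.9), and replicate 3 for Ctss at 21.0 (others 14.5 to 15.1) and Ms4a4b at 169.4 (others 78.4 to 97.0). Replicate 1 is the transgenic library with most Cd22 and least Igkc.

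Among the knockout-labelled libraries, replicate 4 stood apart for Atf4 at 112.5 (others 91.7 to 96.4), Phlda3 at 2.81 (others 1.04 to 1.43) and Trdc at 365.4 (others 533.9 to 574.0), and replicate 5 for Hba-a1 at 19.5 (others 1.66 to 5.0).

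Among the controls, replicate 1 stood apart for Igkc at 2.64 (others 0.107 to 0.828), Hba-a1 at 43.4 (others 1.52 to 3.44), Cd74 at 9.3 (others 0.908 to 2.81) and Ppic at 0.842 (others 1.33 to 1.63), and replicate 6 for Adam12 at 43.3 (others 62.4 to 65.2), Bcl2l1 at 69.6 (others 97.7 to 111.3), Cxcr2 at 11.6 (others 7.4 to 8.49), Ighm at 447.1 (others 383.4 to 397.4) and Bcl2l11 at 157.3 (others 200.3 to 224.1).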

How the results depend on the processing

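The count of 174 called genes was 278 without a filter on low counts, 342 with DESeq2, 106 in males alone and 99 when a fold change over 1.2 was tested. Leaving out 1 library at a time gave 122 (without transgenic replicate 3) to 225 (without control replicate 2). Higher and lower calls split 277 to 65 with DESeq2 and 158 to 41 without the libraries of high class II transcripts, against 160 to 14. The cause was not tested.

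Replicate numbers are shared between the groups. Same-numbered libraries deviated together with r = 0.273, 0.0947, 0.00152, 0.0829 and 0.0918 across genes, and different-numbered ones with r = -0.217 to 0.169. Genes are not independent replicates, so these values are no test of pairing. The labels do not say that a number marks a litter or day, so the numbers were not taken as pairs. A replicate block gave 166 calls (139 higher, 27 lower; 119 of the 174 kept), and with a GC and length correction 168 (127 higher, 41 lower; 114 kept).

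Of 2291 values of the 72 called named genes under 32 alternatives, 2012 kept direction and call, 279 lost the call and 0 changed sign. Among genes not called, Nfkb2 was at -0.139 and Relb at -0.0258 without the libraries of high class II transcripts. Cxcr2, at -0.01, was at 0.0286 without a sex term, 0.00823 with only these groups, 0.0213 in males alone and 0.0162 with the replicate block. It was at 0.00123, 0.0176, 0.0149 and 0.0266 without knockout replicate 1, 4 or 5 or transgenic replicate 2, within a range of -0.0431 to 0.0266 over the libraries left out. With RLE size factors the median of all genes moved by -0.010. Genes under about 1 CPM rest on few counts, and smaller differences there were not detectable at this depth.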

Other observations

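Of the 160 genes called higher, 39 were on a gene list, 10 on a marker list and 111 on neither. Among genes off the lists, Samhd1, a nucleotide hydrolase that limits retroviruses, stood at 15.1, 10.3, 29.7, 12.1 and 17.2 CPM in the transgenic libraries (log2 fold change 1.71, SE 0.27, adjusted p = 0.0041). Cysltr2, a leukotriene receptor gene, stood at 8.44, 10.7, 11.9, 9.89 and 10.4 CPM (log2 fold change 0.99, SE 0.13, adjusted p = 4.4e-04). The chemokine gene Ccl5 stood at 3.42, 1.64, 1.04, 0.904 and 1.24 CPM (log2 fold change 2.53, SE 0.48, adjusted p = 0.0099), with replicate 1 the highest, as for Cd22. Its call was lost in males alone (0.10) and without the libraries of high interferon response (0.064) or high class II transcripts (0.069).

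By chromosome, the share of tested genes called was highest on chromosome 19 (2.58%), chromosome 17 (2.5%), which holds the MHC genes, and chromosome 12 (2.05%), which holds the immunoglobulin heavy chain genes, against 1.17% of all genes. These genes were chosen after their values were seen.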
